A study of Danio rerio with 18 samples.

Results

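Muscle cells of zebrafish embryos that carry a miR-206 reporter were compared with all remaining cells of those embryos, on 6 of the 18 arrays of the series. The arrays were chosen by their labels: 3 arrays of GFP-positive cells, named muscle, and 3 arrays of GFP-negative cells, here called the rest, all of them wild type. The genes described are those read by probe sets with a single gene symbol. The array holds 8793 such genes, and 6831 of them were bright enough to be tested, within 9548 features that also include 2717 probe sets without a single gene.

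The embryos were at 14 to 16 somites and had been kept at 28 °C, and 100 ng of total RNA went into each labelling. Expression was read on Affymetrix arrays, which give 1 intensity per probe set. The labels call the 3 arrays of each group biological replicates. The number of embryos per sample, the promoter of the reporter and the sort gates are not given in the labels. A second wild-type line, carrying a miR-124 reporter, was sorted in the same way into GFP-positive cells of the central nervous system (CNS) and GFP-negative cells, 3 arrays each. It serves here for comparison. The last 6 arrays came from Dicer mutants that carry the miR-124 reporter (MZ in the labels). They enter the filter on dim features, the choice of probe set for each gene and the estimate of the spread between replicates. They enter no comparison.

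Skeletal muscle arises from the somites, blocks of mesoderm that bud from the presomitic mesoderm beside the neural tube. The transcription factors Myf5 and MyoD commit cells to the muscle fate, myogenin follows as they differentiate, and the fibres then build sarcomeres, in which myosin thick filaments slide along actin thin filaments anchored in Z discs. In zebrafish, slow fibres arise from cells next to the notochord under Hedgehog signals, and fast fibres form later from the rest of the somite by fusion. miR-206 is a microRNA of skeletal muscle that shares its seed with miR-1.

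Array medians lay between 31.1 and 35.1 in muscle and between 36.5 and 42.8 in the rest, with all arrays on a common trimmed mean. Intensities correlated between 0.980 and 0.986 among muscle arrays, between 0.963 and 0.983 among rest arrays and between 0.863 and 0.889 across the groups. Changes are log2 fold changes of intensity + 16, muscle over rest, with a median standard error (SE) of 0.17. Adding 16 shrinks the change of a gene that is dim in one group. A gene is called where the adjusted p of limma's two-sided test was under 0.05. The values of the 3 replicates are given in their order here and below. Of the alpha actin control sets, the 3′ set had 4975, 4304 and 5510.2 in muscle and 269, 148 and 326 in the rest. The middle set had 1167.3, 1247.5 and 1793.8 in muscle and 51.7, 40.3 and 70.9 in the rest. The 5′ set had 44.5, 36.8 and 32.1 in muscle and 44.4, 27.1 and 32.4 in the rest. Why the 5′ set showed no difference was not tested.

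The sort was checked against markers of 14 cell types. Over all features 13.1% were called higher, 23.1% were called lower and 42.4% had groups that did not overlap. All 8 measured muscle markers were called higher, without overlap between the groups. Of 37 measured markers of other cell types, 32 were lower, 1 was higher (foxd3, treated below) and 4 were not called (neurod4, kdrl, nanos3 and dnd1). The endothelial gene kdrl was lower with the same-numbered arrays paired as a block (-1.07, adjusted p = 0.00837). The slow myosin heavy chain gene smyhc1 had 3970.4, 2512 and 3783 in muscle and 29.6, 31.1 and 114 in the rest. Myogenin, myog, had 915, 1197 and 1496 in muscle and 65.1, 59.5 and 65.2 in the rest, and the Z-disc cross-linker gene actn3b had 781, 782 and 889.9 in muscle and 24.1, 17.7 and 22 in the rest. The label of the GFP-positive cells therefore fits their markers, also those not given with the definition. The rest kept a low level of muscle RNA, as actc1b shows further on. In sorted bulk samples, fewer cells of a type and less RNA per cell cannot be told apart.

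Among all 9548 features, 1248 were higher in muscle (13.1%) and 2209 were lower (23.1%), and the median change was -0.06. The 3 muscle arrays and the 3 rest arrays did not overlap for 4050 features (42.4%). Of genes with a symbol, 264 were called higher by at least 2-fold, 93 by at least 4-fold, 43 by at least 8-fold and 16 by at least 16-fold. The counts of genes called lower at these sizes were 655, 219, 62 and 18. All 264 genes in the higher 2-fold class rose in each of the 3 same-numbered pairs, and 654 of the 655 fell in each. These genes were selected on the same arrays, so this agreement is largely built in and is no measure of reproducibility. How the arrays are scaled shifts the balance of small changes. Centring each array on its median moved the median change by 0.20 and gave 2226 higher and 1543 lower features, so that 59.1% of the calls were higher, against 36.1% as analysed here and 46.4% after quantile normalization.

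**Figure D1:**
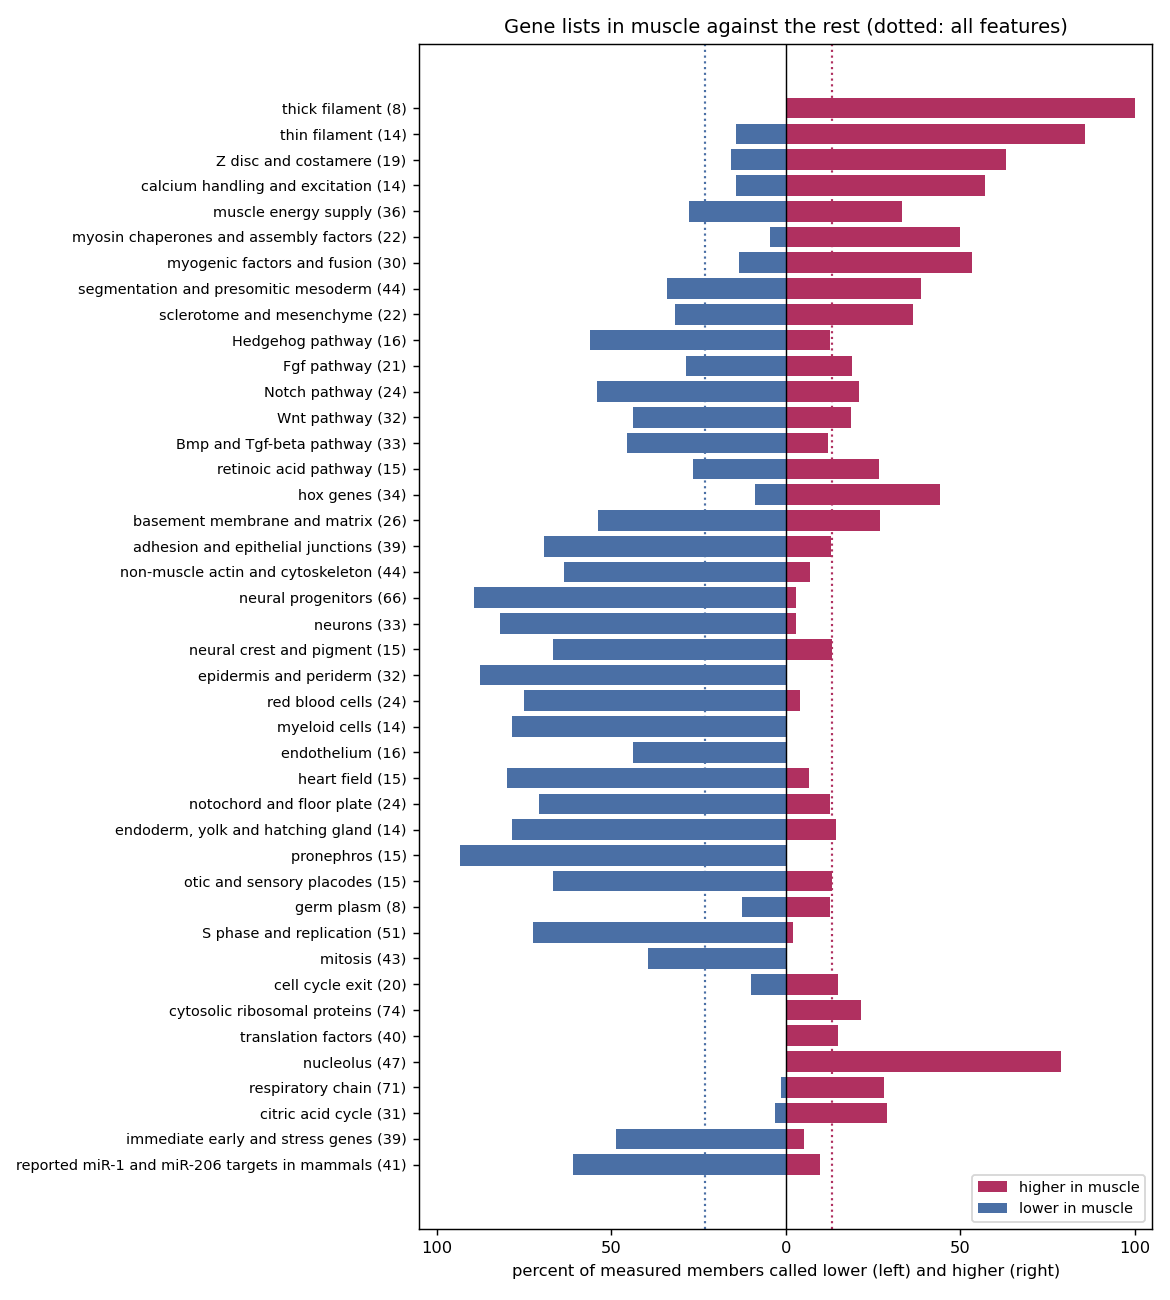
Percent of the measured members of each gene list (number measured in parentheses) called higher in muscle (right, red) and lower (left, blue), with dotted lines at 13.1% and 23.1%, the percentages over all features. Thick and thin filament lists lie far to the right, lists of neural progenitors, epidermis and pronephros far to the left, and the nucleolus list stands to the right of the other cell state lists.

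Genes of the contractile apparatus led the muscle cells. Of 11 thick filament genes on the array, 8 passed the filter on dim features. All 8 of these rose, with a median of 3.31, and with no filter 9 of the 11 were higher. The regulatory light chain gene myl10 had 2461, 1821 and 2719 in muscle and 238, 106 and 179.5 in the rest (3.67, SE 0.23, adjusted p = 1.2e-10). The fast essential light chain gene myl1 had 306, 603 and 778 in muscle and 4.8, 2.3 and 8.9 in the rest (4.67). The myosin-binding gene mybphb had 1128, 1022 and 1169 in muscle and 102, 82.7 and 110.4 in the rest (3.30, SE 0.14). The slow form smyhc1 and the fast form myl1 were thus both high in the sorted cells, and the groups of these genes did not overlap.

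Of 14 measured thin filament genes 12 rose and 2 fell, with a median of 2.88; over all 19 on the array, without the filter, the median was 1.49 and the counts were the same. The alpha actin gene actc1b, expressed in zebrafish skeletal muscle, had 4966, 4603 and 6374 in muscle and 328, 247 and 351 in the rest (4.04). The tropomyosin gene tpma had 863, 617 and 734 in muscle and 21.8, 13.1 and 23.4 in the rest (4.41, SE 0.19). Genes of the troponin complex, which makes the filament sensitive to calcium, moved with them. The fast troponin I gene tnni2b.1 had 1703, 1708 and 1736 in muscle and 44.1, 34.2 and 72.7 in the rest, and tnnc2.2 (troponin C) rose by 4.77. The actin-binding gene nexn (4.10) and neb (2.76), which encodes the giant filament protein nebulin, rose as well, and the filament-capping gene tmod4 rose by 0.97. The falls were those of a cardiac form and of a second tropomyosin. The cardiac troponin T gene tnnt2a had 1.3, 2.7 and 2 in muscle and 26.6, 52.6 and 75.8 in the rest (-1.84), and the tropomyosin gene tpm3 had 514, 650.2 and 530.5 in muscle and 1677, 1729 and 1479 in the rest (-1.51).

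Of 19 measured Z disc and costamere genes 12 rose and 3 fell (median 1.47, and 0.60 over all 25 on the array). The titin gene ttn.2 had 1471, 3577 and 3703 in muscle and 74.6, 214 and 199 in the rest (4.04). The filamin gene flncb had 1482, 3099 and 2981 in muscle and 101, 147 and 184 in the rest (3.94). Desmin, desma, the intermediate filament that links Z discs, rose by 2.63. The dystrophin gene dmd was higher by only 0.60 (adjusted p = 0.0184), a call that was lost without muscle replicate 1, without rest replicate 2 and without rest replicate 3, and the sarcoglycan gene sgce fell by 1.17 on the log2 scale.

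The calcium machinery that couples excitation to contraction was mostly higher. Of 14 measured genes 8 rose and 2 fell (median 1.16), and over all 23 on the array the median was 0.13. The calcium pump gene atp2a1 of the sarcoplasmic reticulum had 523, 1081 and 1660 in muscle and 24.8, 24.4 and 34.7 in the rest (4.51, SE 0.37). Its relative atp2a2a had 41.5, 43.9 and 37.4 in muscle and 50.6, 75.7 and 74.6 in the rest (-0.53, adjusted p = 0.0205); this call was lost after median centring, after quantile normalization and without muscle replicate 3, rest replicate 2 or rest replicate 3. The cation channel gene tmem38a had 878, 846 and 1082 in muscle and 26.6, 18.1 and 37.5 in the rest (4.47), whereas its copy tmem38b had 17.2, 29.6 and 30 in muscle and 98.3, 83.2 and 79 in the rest (-1.32). Also higher were srl (3.81), which encodes the calcium-binding protein sarcalumenin, and chrna1 (2.27), a subunit of the acetylcholine receptor of the neuromuscular junction.

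Energy genes moved both ways. Of 36 measured genes 12 rose and 10 fell, with a median of 0.06, where 13.1% of all features rose and 23.1% fell. The share of falls was thus near that of all features. The muscle creatine kinase gene ckmb had 514, 585 and 1131 in muscle and 17.3, 13.6 and 34.5 in the rest (4.28), and ckma rose by 3.59. The brain-type gene ckbb had 29.7, 27.8 and 6 in muscle and 120.3, 85.3 and 103 in the rest (-1.74). Creatine kinases therefore stood on opposite sides according to isoform.

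The aldolase gene aldoab had 698, 804 and 1050.5 in muscle and 45, 31.5 and 38.6 in the rest (3.98, SE 0.20), and aldocb had 11.3, 5.1 and 6.2 in muscle and 70.2, 72.9 and 60 in the rest (-1.84). Of the glyceraldehyde-3-phosphate dehydrogenase genes, gapdh rose (1.53) and gapdhs fell (-2.09). Of the phosphoglycerate mutase genes, pgam2 rose (1.46) and pgam1b fell (-0.72). Cytosolic malate dehydrogenase genes did likewise, with mdh1ab at 2.14 and mdh1aa at -0.79, although the arrays of mdh1aa overlapped and its call was lost with only the 6 arrays in the fit and without muscle replicate 2. The pyruvate kinase gene pkma (-1.51) and the glycerol phosphate dehydrogenase gene gpd1b (-1.97) fell. The enolase gene eno3 had 28.9, 45.8 and 68.9 in muscle and 43.3, 30.2 and 33.3 in the rest and was not called.

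**Figure D2:**
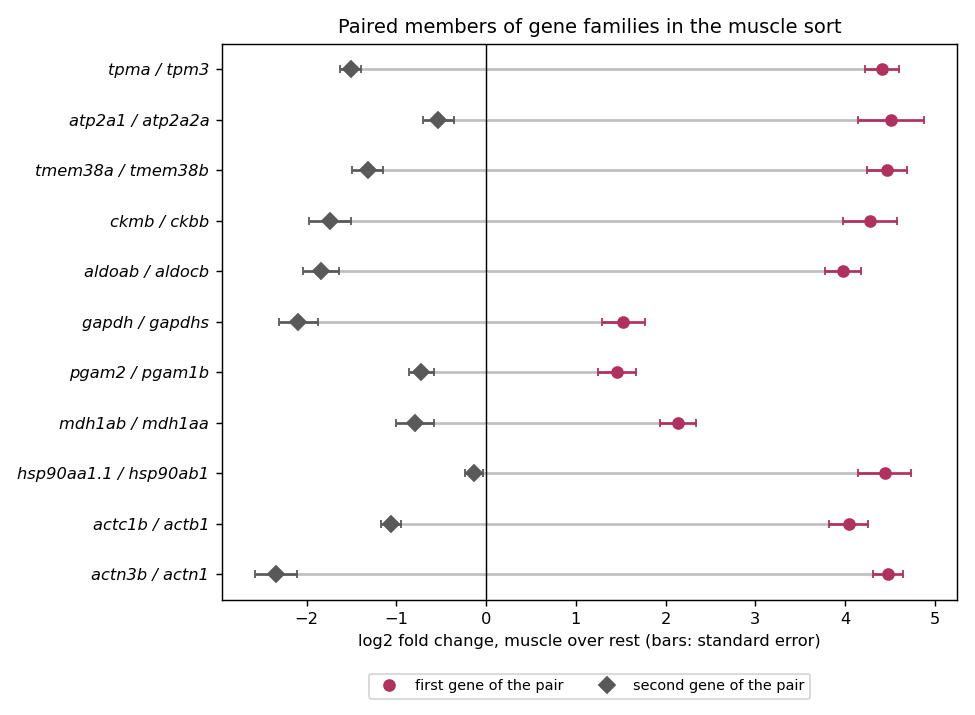
Log2 fold change, muscle over rest, with its standard error for members of 11 gene families, the first gene of each pair as a red circle and the second as a grey diamond. In each pair drawn the first gene lies to the right of zero, between 1.46 for pgam2 and 4.51 for atp2a1, and the second lies to the left; the second member of the chaperone pair, hsp90ab1, at -0.13, was not called. The pairs were drawn after their values were seen.

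Chaperones that fold myosin and assemble sarcomeres also included large rises. Of 22 measured genes 11 rose and 1 fell (median 0.91, and 0.46 over all 26 on the array). The chaperone gene hsp90aa1.1 had 5252, 5846 and 5567 in muscle and 211, 172 and 379 in the rest (4.44, SE 0.30, adjusted p = 3.55e-10). Its relatives hsp90ab1 (5033, 4547 and 4693 in muscle and 5301, 5129 and 5219 in the rest) and hsp90aa1.2 (-0.63) were not called, except that hsp90aa1.2 was lower with the replicate block (adjusted p = 0.0152) and hsp90ab1 after quantile normalization (-0.34). Of the 3 Hsp90 genes, only hsp90aa1.1 was higher in muscle.

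Its partner unc45b, a myosin co-chaperone, had 1984, 2063 and 2414 in muscle and 265, 143 and 272 in the rest (3.21). The gene klhl41b, whose product stabilises the thin filament, rose by 4.52. The co-chaperone gene dnajb6b fell (-1.40). Among the 16 largest rises of all named genes were also trim109 (4.28) and the elastic fibre gene efemp2b, which had 2215, 2242 and 2006 in muscle and 122, 88.7 and 133 in the rest (4.07).

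**Figure D3:**
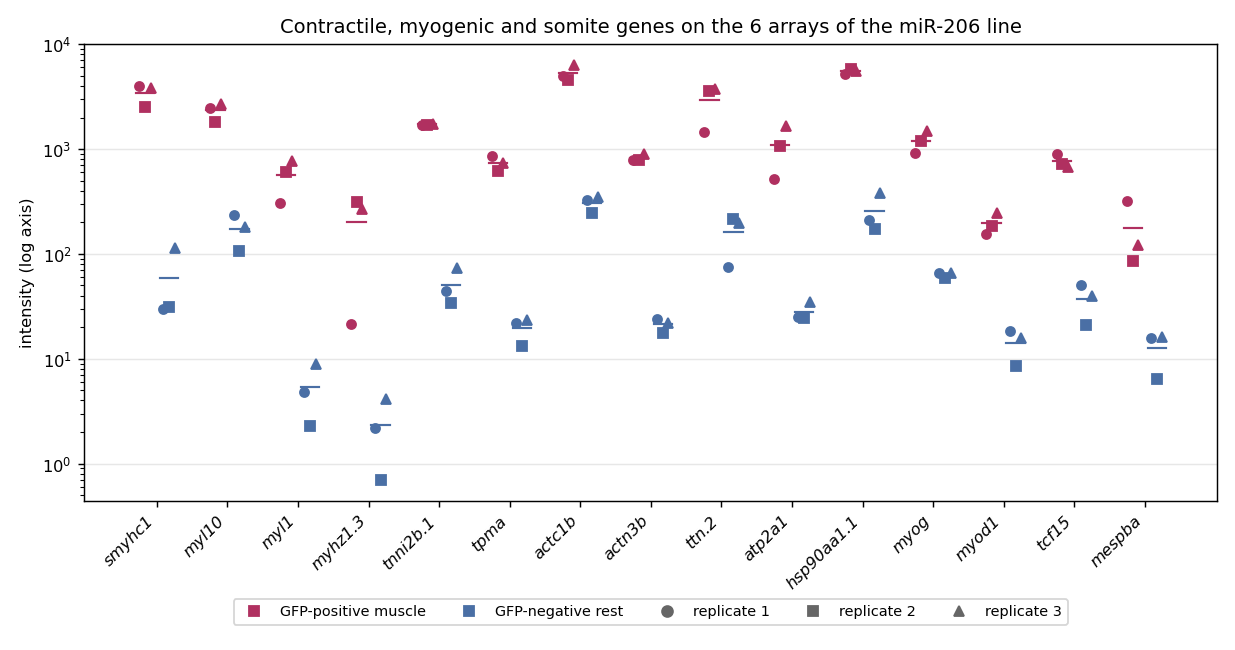
Intensity on a log axis of 15 genes on the 3 muscle arrays (red, left) and the 3 rest arrays (blue, right) of the miR-206 line, with marker shape for the replicate number and a line at each mean. Every muscle value lies above every rest value of the same gene. Muscle replicate 1 (circles) is the lowest of the muscle arrays for myl1, myhz1.3, ttn.2 and atp2a1. It is also the lowest for tnni2b.1, actn3b, hsp90aa1.1, myog and myod1, in part by little. It is the highest for mespba, smyhc1, tpma and tcf15, and neither for myl10 and actc1b.

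Upstream of these genes, the myogenic factors were higher too. Of 30 measured myogenic and fusion genes 16 rose and 4 fell (median 0.58, and 0.34 over all 34 on the array). The determination factor gene myod1 had 156, 184 and 245 in muscle and 18.5, 8.6 and 15.7 in the rest (2.80), and myf5 had 286, 259.5 and 282 in muscle and 68.8, 24.1 and 59.4 in the rest (2.20). The cofactor genes mef2d (3.56) and mef2ca (1.22) rose, as did the cell cycle inhibitor cdkn1ca (0.70), which in zebrafish acts with Myod in muscle differentiation. The satellite cell factor gene pax7a had 20.5, 34.2 and 33.2 in muscle and 10.6, 24.1 and 21.5 in the rest and was not called; it was called higher with the replicate block (adjusted p = 0.0449), after median centring and after quantile normalization.

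In zebrafish, fast myoblasts fuse through a pair of adhesion receptors. The gene jam2a had 329, 424 and 501 in muscle and 41.9, 30.4 and 38 in the rest (3.03, SE 0.21). The gene of its partner, jam3b, had 542, 972 and 1059 in muscle and 607, 1076 and 848 in the rest (0.00, SE 0.21, not called), so only 1 of the 2 receptor genes marked the sorted cells. The muscle cadherin gene cdh15 had 36.4, 102.9 and 75.5 in muscle and 0.5, 2.6 and 4.7 in the rest (2.16). It passed the filter on dim features only through the muscle arrays, so its call depends on the group where it was high. Id proteins block MyoD-like factors: id3 fell (-1.09), and id1 had 3749, 1709 and 2922 in muscle and 3536, 2092 and 2714 in the rest and was not called.

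Genes of young somites were high beside those of differentiated fibres. Of 44 measured segmentation and presomitic genes 17 rose and 15 fell (median 0.29), where 13.1% of all features rose and 23.1% fell. The somite factor gene tcf15 had 900, 721 and 680.3 in muscle and 50.1, 21 and 39.6 in the rest (3.92), tbx6 had 457, 437 and 475 in muscle and 68.8, 46.8 and 73.9 in the rest (2.59), and the Notch ligand gene dlc had 973, 688 and 549.5 in muscle and 126, 144 and 212 in the rest (2.08). The oscillating gene her1 rose (1.45), and her7 reached 0.65 at the edge of the threshold (adjusted p = 0.0506, and 0.05 with the replicate block).

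Other genes of the tailbud and presomitic mesoderm were not called or fell. The factor gene msgn1 had 1781, 1900.5 and 2294 in muscle and 2094, 1287 and 1930.4 in the rest (0.19, not called), and tbx16 was not called either (0.32, SE 0.40). The tailbud and notochord gene tbxta had 39, 49.4 and 36.2 in muscle and 265, 208 and 238 in the rest (-2.14), and cyp26a1, which degrades retinoic acid in the tailbud, fell by 1.25 on the log2 scale.

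The 3 muscle arrays differed among themselves for some of these genes. Besides ttn.2 and atp2a1 above, the fast myosin heavy chain gene myhz1.3 had 21.6, 311 and 269 in muscle and 2.2, 0.7 and 4.1 in the rest, and the fast light chain gene mylpfa had 83.2, 206 and 271 in muscle and 5.8, 5 and 11 in the rest. The segment boundary genes mespba and mespaa ran the other way: mespba had 318, 85.9 and 122 in muscle and 15.7, 6.4 and 16 in the rest, and mespaa had 238, 69 and 118 in muscle and 19.3, 24.9 and 22.4 in the rest. Muscle replicate 1 was thus the lowest of 3 for ttn.2, atp2a1, myhz1.3 and mylpfa and the highest for mespba, mespaa, dlc and aldh1a2. These genes were chosen after their values were seen, and others went against them: replicate 1 was the highest for the sarcomere genes tpma and smyhc1, not the lowest for myl10, and the lowest for the presomitic gene msgn1. The source of the difference was not tested.

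The somite also gives rise to skeleton and connective tissue. Of 22 measured sclerotome and mesenchyme genes 8 rose and 7 fell (median 0.03), where 13.1% of all features rose and 23.1% fell. The matrix genes tgfbi (2909, 3261 and 2926 in muscle and 266, 215 and 408 in the rest, 3.33) and col5a2a (2747, 2679 and 3102 in muscle and 237, 249 and 374 in the rest, 3.27) were high, and postnb (1.96) and col1a1a (1.60) rose. The cartilage and notochord collagen gene col2a1a had 11.1, 23.4 and 18.1 in muscle and 504, 543 and 554 in the rest (-4.05). The sclerotome factor gene pax9 had 39.5, 28.8 and 61.2 in muscle and 34.6, 27.5 and 30 in the rest and was not called, but was called higher after median centring (0.50).

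Signalling pathways held genes that rose and genes that fell, where 13.1% of all features rose and 23.1% fell. For Hedgehog genes the share of rises was near that of all features. In the Hedgehog pathway, which patterns slow muscle, 2 of 16 measured genes rose and 9 fell (median -0.55, and -0.28 over all 22 on the array), with 6 lower after quantile normalization or with only the 6 arrays in the fit. The ligand gene shha, made by notochord and floor plate, had 18.4, 36.5 and 25.2 in muscle and 238, 266 and 230.3 in the rest (-2.63). The transducer gene gli2a had 803, 865 and 790 in muscle and 229.5, 292 and 275 in the rest (1.57). The target gene foxa2 of the floor plate fell (-2.72), as did the engrailed gene en2a (-2.27).

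In the Fgf pathway 4 of 21 rose and 6 fell (median 0.02), near the 13.1% and 23.1% of all features. The ligand gene fgf8a rose (1.16). Receptors differed: fgfrl1a had 762, 977 and 769 in muscle and 148, 202 and 179 in the rest (2.15), fgfr1a was not called (0.06), and fgfr2 (-1.65) and fgfr3 (-1.30) fell. The feedback targets dusp6 (-0.17) and spry4 (0.07) were not called, dusp6 with 1668, 1322 and 1395 in muscle and 1972, 1577 and 1408 in the rest, and dusp2 fell (-2.53).

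In the Notch pathway 5 of 24 rose (3 with only the 6 arrays in the fit) and 13 fell (median -0.61). Of all 9548 features 13.1% rose and 23.1% fell, and 892 rose with only the 6 arrays. The effector gene hey1 had 799, 583 and 645 in muscle and 63.8, 141 and 97.8 in the rest (2.61), whereas the hairy-related gene her9 had 142, 155 and 117 in muscle and 1151, 1077 and 743 in the rest (-2.69). The neural effector genes her4.2 (-2.17) and her4.5 (-2.53), near-identical copies whose probe sets may share signal, fell. The ligand gene jag1b (-1.18) and dla (-0.74) fell, while dlc rose as given above. The receptor gene notch1a was called higher (0.63, adjusted p = 0.0173), a call lost with only the 6 arrays in the fit, without muscle replicate 2 and without rest replicate 3.

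In the Wnt pathway 6 of 32 rose and 14 fell (median -0.21), where 13.1% of all features rose and 23.1% fell. After median centring 8 fell, beside 1543 of all 9548 features, and the median was -0.01. The secreted inhibitor gene wif1 had 451, 477 and 517 in muscle and 58, 69.8 and 143 in the rest (2.31), and the inhibitor genes dkk1b (-1.21) and dkk2 (-1.37) fell. The receptor gene fzd8a had 44.3, 92.2 and 30.5 in muscle and 534, 559.8 and 422 in the rest (-2.94). The feedback target axin2 fell (-1.14, SE 0.12).

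In the Bmp and Tgf-beta pathway 4 of 33 rose and 15 fell (median -0.42), where 13.1% of all features rose and 23.1% fell. After median centring 7 rose, beside 2226 of all 9548 features. The share of rises was near that of all features in both settings. The ligand gene bmp4 fell (-1.33), the receptor gene bmpr1ba rose (167, 220.4 and 220.1 in muscle and 46.2, 43.5 and 37.8 in the rest, 1.89), and the target msx1b fell (53.5, 66.9 and 64.4 in muscle and 559.9, 464 and 448 in the rest, -2.70). The general target id1 was not called, as given above.

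Retinoic acid genes also moved both ways. The synthesis gene aldh1a2 had 1948, 1599 and 1347 in muscle and 117, 93.8 and 98.3 in the rest (3.78). The carrier gene crabp2b had 979.9, 1476 and 1393 in muscle and 277, 157 and 198 in the rest (2.53), and the retinol uptake gene stra6 rose by 1.23. The degrading enzyme genes cyp26b1 (8.3, 4 and 5.4 in muscle and 189.8, 223 and 188 in the rest, -3.30) and cyp26a1 fell. Over the list 4 of 15 rose and 4 fell, where 13.1% of all features rose and 23.1% fell. The share of falls was thus near that of all features.

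Of 34 measured hox genes, which set position along the body, 15 rose and 3 fell (median 0.40). Of all features 13.1% rose and 23.1% fell. The 3 largest rises were those of hoxc6b, with 161, 142 and 121 in muscle and 11.1, 32.6 and 28.6 in the rest, hoxb10a (1.29) and hoxb9a (1.25). The hindbrain gene hoxb1a fell (-0.77), and the tail gene hoxc13a fell (-1.17).

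Adhesion and the general cytoskeleton were lower in muscle, where 13.1% of all features rose and 23.1% fell. Of 39 measured adhesion and junction genes 5 rose and 27 fell, with a median of -1.76, and of -0.82 over all 52 on the array. The epithelial cadherin gene cdh1 had 54.9, 82.5 and 44.6 in muscle and 537, 551 and 618 in the rest (-2.96), whereas the neural and mesodermal cadherin gene cdh2 had 2449, 2228 and 2319.9 in muscle and 1726, 1634 and 1556 in the rest (0.51, adjusted p = 0.00609). The connexin gene gja1b fell (-3.05). Within this list the claudin gene cldni fell the most, with 8.9, 61.9 and 8.5 in muscle and 1704, 2086 and 1628 in the rest.

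Of 44 measured genes of non-muscle actin and cytoskeleton 3 rose and 28 fell (median -0.86). The actin monomer-binding gene pfn1 had 46.6, 91.2 and 33.2 in muscle and 1595, 1379 and 1206 in the rest (-4.34). The filament-severing gene cfl1l had 37.7, 109.9 and 28.2 in muscle and 1066, 1277 and 1065 in the rest (-4.10). The intermediate filament gene vim had 11.7, 12.5 and 12 in muscle and 241, 302 and 284 in the rest (-3.37). Cytoplasmic beta actin, actb1, had 1837, 2122 and 1935 in muscle and 4097, 4109 and 4124 in the rest (-1.06), and the non-muscle alpha actinin gene actn1 fell (-2.34), both opposite to the muscle forms actc1b and actn3b. The nuclear lamina gene lmnb1 was the largest rise of the list (0.90).

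Of 26 measured matrix genes 7 rose and 14 fell, where 13.1% of all features rose and 23.1% fell. The thrombospondin gene thbs4b, which in zebrafish organises the matrix at muscle attachments, had 339.5, 547 and 779 in muscle and 28.9, 33.7 and 55.6 in the rest (3.32), and the fibronectin gene fn1b of the somite boundary had 1837, 1842 and 1650.1 in muscle and 156, 197 and 278 in the rest (3.02). The laminin gene lama5 (-1.97) and the collagen genes col14a1a (-2.24) and col15a1a (-1.90) fell.

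Genes of other tissues were low in the muscle cells, where 13.1% of all features rose and 23.1% fell. The counts that follow are of members that passed the filter on dim features. With no filter, 60 of 70 neural progenitor and 29 of 43 neuronal genes fell (medians -1.80 and -0.78). So did 15 of 23 pronephros and 13 of 20 heart genes (medians -0.97 and -1.16). Of 66 measured neural progenitor genes 2 rose and 59 fell (median -2.17); pax6a had 7.6, 16.5 and 2.3 in muscle and 296, 416 and 298 in the rest, and sox2 had 3.6, 15.7 and 8.6 in muscle and 422, 434 and 362 in the rest. Of 33 neuronal genes 1 rose (alcama, 0.48) and 27 fell. The alcama call was lost with only the 6 arrays in the fit and without muscle replicate 2, muscle replicate 3, rest replicate 1 or rest replicate 2. Among the falls were those of the RNA-binding gene elavl3 (-2.71) and insm1b (-3.18). Of 15 pronephros genes 0 rose and 14 fell, and of 15 heart genes 1 rose (hey2, a call lost when any 1 of 4 arrays was left out, muscle replicates 1 and 3 and rest replicates 1 and 2, with only the 6 arrays in the fit or with a pseudocount of 1) and 12 fell, among them hand2 with 18.4, 32.3 and 20 in muscle and 951, 800 and 984 in the rest.

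For epidermis and periderm 0 of 32 measured genes rose and 28 fell (median -2.09), and their summed intensity was 675, 1660 and 754 on the muscle arrays and 11270, 12480 and 11940 on the rest arrays. Muscle replicate 2 was the highest muscle array for this list, also for krt4, with 40.2, 137 and 8.6 in muscle and 747, 739 and 801 in the rest. For red blood cells 1 of 24 rose (tmod4, also a sarcomere gene) and 18 fell, and the sum was 710, 1508 and 2202 on the muscle arrays and 6242, 8388 and 10720 on the rest arrays. The globin gene hbae3 had 16.4, 326 and 583 in muscle and 1814, 2749 and 3292 in the rest (-3.77, SE 0.67). Red blood cell RNA was lowest in replicate 1 and highest in replicate 3 in both fractions. Leaving out any 1 of the arrays left 27 to 30 epidermal and 17 or 18 red blood cell genes called lower. With no filter on dim features, 28 of 39 epidermal and 18 of 27 red blood cell genes were lower (medians -1.96 and -1.66).

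**Figure D4:**
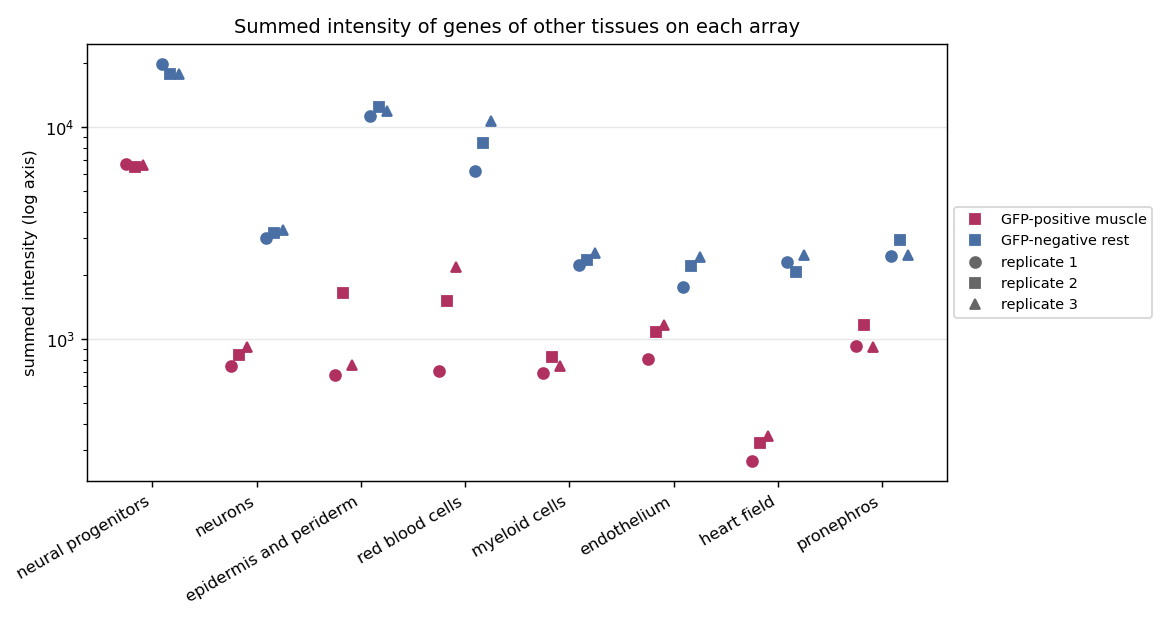
Summed intensity, on a log axis, of the measured members of 8 lists of other tissues on each muscle array (red, left) and each rest array (blue, right), with marker shape for the replicate number. All muscle sums lie below all rest sums of the same list; epidermal RNA stands out in muscle replicate 2, and red blood cell RNA is lowest in replicate 1 of both fractions.

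A few genes on these lists were higher in muscle. The crest gene foxd3, which in zebrafish is also expressed in somites, had 504, 532 and 636 in muscle and 187, 127 and 102 in the rest (1.92), while the crest genes sox10 (-4.21) and tfap2a (-5.26) fell. The transcriptional cofactor gene eya1 rose (1.35), as did snai2 (0.99), ntd5 (1.43) and the chemokine receptor gene cxcr4a (1.08). The apolipoprotein gene apoc1 had 2536, 2494 and 2857 in muscle and 924, 654 and 1022 in the rest (1.60, SE 0.32). Whether these transcripts come from muscle cells or from other GFP-positive or adhering cells was not tested.

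Cell cycle genes were lower and nucleolar genes higher, both by small amounts, where 23.1% of all features fell and 13.1% rose. For mitosis genes this depended on the scaling of the arrays. Of 51 measured S phase and replication genes 1 rose and 37 fell (median -0.63). The nucleotide synthesis gene rrm1 had 529.8, 742 and 677 in muscle and 1837, 1621 and 1689 in the rest (-1.39, SE 0.20), and the replication clamp gene pcna had 3857, 3113 and 3153 in muscle and 5284, 4359.6 and 4307 in the rest (-0.46). Of 43 mitosis genes 0 rose and 17 fell (median -0.39), with ccnb1 at -0.51 and cdk1 not called (-0.39, adjusted p = 0.0525, and 0.0355 with the replicate block). After median centring 22 of 51 S phase genes and 7 of 43 mitosis genes were lower, beside 1543 of all 9548 features. The mitosis share was then near that of all features, and pcna and ccnb1 were no longer called. The anti-proliferative gene tob1b rose (1.63), and rb1 was not called (-0.36).

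Of 47 measured nucleolus genes, which build ribosomes, 37 rose and 0 fell (median 0.55), and no member was below -0.09. The ribosomal RNA methyltransferase gene nop2 had 2299, 2248 and 1820 in muscle and 785, 1275 and 1054 in the rest (1.04, SE 0.14). The RNA polymerase I gene polr1b had 2180.5, 1589 and 1974 in muscle and 1089.9, 933 and 923 in the rest (0.94). The stem cell and nucleolar gene gnl3 rose by 0.87, and fibrillarin, fbl, by 0.53. The proto-oncogene myca, which is not on the nucleolus list, rose (80.4, 113 and 86.3 in muscle and 29.6, 35.3 and 30.4 in the rest, 1.18). A link between myca and the nucleolar genes was not tested. The nucleolar count was 46 after median centring, 35 with no filter and 28 to 39 when 1 array was left out.

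Ribosomal protein genes leaned the same way, at high intensities and with less certainty. Of 74 measured genes 16 rose and 0 fell, where 13.1% of all features rose, with a median of 0.29 and 0.07 after quantile normalization. The count was 37 with the replicate block, 66 with array weights, 64 after median centring, 7 with no filter, 6 with only the 6 arrays in the fit, 5 without a variance trend and 1 after quantile normalization. It moved with single arrays: 3 without muscle replicate 1, 6 without muscle replicate 3, 59 without rest replicate 1, 2 without rest replicate 2 and 2 without rest replicate 3, as well as 10 without replicate 2 of the CNS cells and 30 without replicate 2 of their rest.

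Respiratory chain genes did the same. Of 71 measured 20 rose and 1 fell (median 0.35), where 13.1% of all features rose and 23.1% fell. Higher were 30 under the replicate block, 47 with array weights, 46 after median centring and 4 with only the 6 arrays in the fit. Of all 9548 features, 1460, 1471, 2226 and 892 were higher in these settings. With only the 6 arrays, the share of the respiratory list was thus below that of all features. The count higher was 7 without muscle replicate 1, 11 without muscle replicate 3, 51 without rest replicate 1, 4 without rest replicate 2 and 8 without rest replicate 3. The synthase gene atp5f1b had 2459, 2476 and 2658 in muscle and 2155, 1627 and 1919 in the rest (0.42), a call lost without rest replicate 2, and sdhb of complex II was not called (0.01). Of 31 citric acid cycle genes 9 rose and 1 fell, with dldh at 1.40; 14 rose after median centring, and 4 with only the 6 arrays in the fit, without muscle replicate 3 or without rest replicate 2.

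Of 40 measured translation factor genes 6 rose and 0 fell (median 0.22), where 13.1% of all features rose. The count was 10 with the replicate block, 10 with array weights, 18 after median centring and 12 without rest replicate 1, and 4 with only the 6 arrays in the fit, without muscle replicate 3 or without rest replicate 2. One stood far from the others: the poly(A)-binding gene pabpc4 had 671, 963 and 1316 in muscle and 138, 128 and 169 in the rest (2.59). Of 39 immediate early and stress genes, which dissociation and sorting can induce, 2 rose and 19 fell, with jun at -1.16, ptgs2a at -2.56 and fosab not called (3412, 3841 and 4055 in muscle and 3955, 4769 and 4408 in the rest).

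MicroRNAs bind target transcripts and lower their level or their translation. Of 41 measured orthologs of reported miR-1 and miR-206 targets from mammals, 4 rose and 25 fell (median -0.51). Over all features 13.1% rose and 23.1% fell. Of these 41 genes, 20 also stand on a tissue or pathway list above. Among the 21 others 1 rose and 12 fell, with a median of -0.50. The thymosin gene tmsb4x had 1113, 1395 and 1083 in muscle and 4852, 4718 and 4452 in the rest (-1.96), the annexin gene anxa4 had 27.8, 53.6 and 57.2 in muscle and 465, 445 and 555 in the rest (-3.05), and fn1b rose. After median centring 5 rose and 16 fell, beside 2226 higher and 1543 lower of all 9548 features. A part played by the microRNA cannot be told apart from the difference in tissue here, because every comparison in this line is between tissues. Of 5 measured genes of the microRNA machinery 0 were called, and dicer1 had 150, 179.6 and 152 in muscle and 119, 184 and 145 in the rest (0.11).

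The muscle sort was finally set against the CNS sort of the wild-type miR-124 line, which shares no array with it. The difference between the 2 sort effects was called for 3259 of 9548 features (34.1%). For 1351 the muscle effect was above the CNS effect (14.1%), and for 1908 it was below (20.0%). The rest of each line lacks the cells sorted from it, and muscle and neural genes, which the sorts separate by construction, are left aside here.

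Lists that neither sort aimed at also differed. Averages here and below stand with the standard deviation (±) of the 3 arrays of a group. For 13 of 16 measured endothelial genes and for 13 of 24 red blood cell genes the muscle effect was above the CNS effect, and for 0 it was below. The globin gene hbae3 averaged 308 ± 284 in muscle and 2618 ± 748 in its rest, and 23.7 ± 18.1 in CNS cells and 4411 ± 446 in their rest, so that its sort effects were -3.77 in muscle and -6.93 in CNS cells (difference 3.16, adjusted p = 0.0132). The blood and vessel factor gene lmo2 averaged 63.7 ± 8.57 in muscle and 285 ± 28.4 in its rest, and 15.1 ± 4.58 in CNS cells and 509 ± 69 in their rest (difference 2.16). Epidermal genes went the other way for 12 of 32 and the same way for 3: the claudin gene cldni averaged 26.4 ± 30.7 in muscle and 1806 ± 245 in its rest, and 211 ± 119 in CNS cells and 1554 ± 149 in their rest (difference -2.74), and epcam differed by -2.44. For these genes, and not for all members of the lists, muscle cells thus carried more red blood cell signal and less epithelial signal than CNS cells, each relative to its own rest. The muscle arrays varied: hbae3 had 16.4 in muscle replicate 1, below the CNS mean of 23.7.

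Presomitic genes marked the other contrast. The factor gene msgn1 averaged 1992 ± 268 in muscle and 1771 ± 427 in its rest, and 147 ± 123 in CNS cells and 1898 ± 688 in their rest (difference 3.96), and tbx16 differed by 3.44, so that genes that were not called in the muscle sort were low in CNS cells. The apolipoprotein gene apoc1 averaged 2629 ± 199 in muscle and 867 ± 191 in its rest, and 63.2 ± 40.1 in CNS cells and 1198 ± 384 in their rest (difference 5.60).

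Cell cycle lists lay on opposite sides. The muscle effect was below the CNS effect for 48 of 51 S phase genes and for 39 of 43 mitosis genes, with list medians of -0.63 and -0.39 in muscle and 0.70 and 0.75 in CNS cells. For nucleolar genes it was above for 15 of 47 and below for 0, with medians of 0.55 in muscle and 0.11 in CNS cells.

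**Figure D5:**
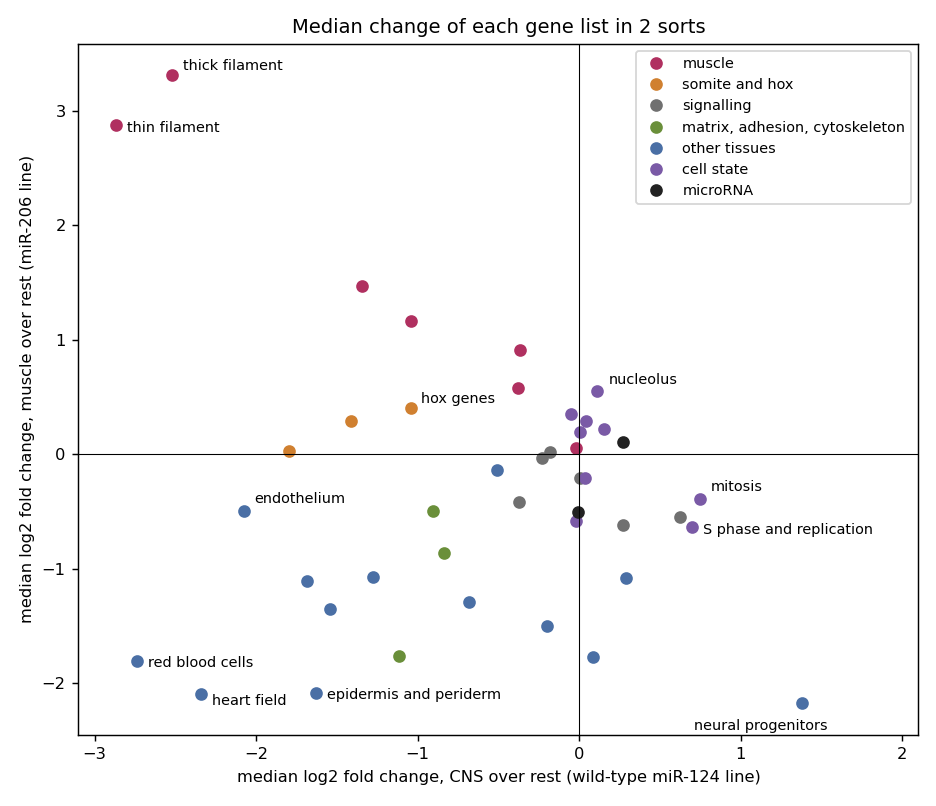
Median log2 fold change of each gene list in the muscle sort (vertical axis, muscle over rest) and in the CNS sort of the wild-type miR-124 line (horizontal axis, CNS over rest), coloured by the kind of list. Filament lists lie at the upper left and neural progenitors at the lower right; red blood cells and heart field are low in both sorts, and the nucleolus list, at 0.55, lies above zero in muscle.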

How the data were processed

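The deposited values are intensity, 1 linear value per probe set and array, made by the authors with MAS5 per the submitters' processing notes. Of 15617 probe sets, 115 controls were left out. Gene symbols came from the platform annotation: 10795 probe sets had 1 symbol, 135 several and 4572 none. A probe set was kept when above the 40th percentile of its array on at least 3 of 18 arrays, and each gene was read from its probe set of highest mean, which gave 9548 features. In R 4.3.3, limma 3.58.1 fitted a mean for each group to log2(intensity + 16) over all 18 arrays, with a variance trend, 12 residual degrees of freedom and Benjamini-Hochberg adjustment within each comparison. Tables and figures were made with Python 3.11.15, pandas 2.3.3, numpy 2.4.6 and matplotlib 3.10.9. In the miR-206 line the residuals of same-numbered muscle and rest arrays correlated at 0.367, 0.372 and 0.203, and those of other numbers between -0.309 and 0.023. Same-numbered arrays thus deviated together, although centring within each group ties these values to one another. The main model, which gave the values above unless another setting is named, had no block. A block by line and number was an alternative. Other alternatives were the pseudocount, the filter, the scaling, the arrays fitted, array weights, the variance trend, every probe set and leaving out each array. In data simulated for muscle against rest over 9548 features, 82 of 100 changes of 2-fold and 23 of 100 of 1.41-fold were called, with 3 false calls. All other features were simulated without a change, the changes were placed only in brighter features, and the noise was independent between arrays. A far larger share of features was called in the real data, so these rates do not carry over to them. With 3 arrays a side, the smallest exact two-sided permutation p is 0.1, so no such test was run on single genes. No read depth exists for arrays, so their number limits the precision.

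The members and the 43 gene lists were chosen with earlier results of these data known, and lists are described, not tested. Named genes are the 4 markers, up to 3 called members of each list in its main direction and 1 in the other, key members, and the 16 largest rises and falls without overlap. Further genes were named after their values were seen: aldocb, atp2a2a, ckbb, cxcr4a, gapdh, gnl3, gpd1b, hsp90aa1.2, hsp90ab1, mespaa, mespba, myhz1.3, pgam1b, pkma, snai2, tpm3 and mterf4, and the markers neurod4 and dnd1.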

Additional observations from a re-analysis of the deposited data

Results flagged for a closer look

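The sort effect (GFP-positive over GFP-negative) differed between the miR-206 line and the wild-type miR-124 line for 3259 features by the test of the difference itself, whose median SE was 0.24. Among the genes reported, the effect in the miR-206 line lay above that in the miR-124 line for the globin genes hbae3 (3.16, log2) and hbbe3 (2.76), for the blood and vessel gene lmo2 (2.16), for the endothelial genes fli1 (1.60) and kdrl (1.69), for the presomitic genes msgn1 (3.96) and tbx16 (3.44), for apoc1 (5.60) and for cxcr4a (4.38). It lay below for the epithelial genes cldni (-2.74), epcam (-2.44) and tp63 (-1.21). The 2 lines differ in reporter, in the cells sorted and in what their GFP-negative fraction holds, and these cannot be told apart.

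The control probe sets were left out of all comparisons. Of 108 of them without a listed gene, 1 differed by at least 2-fold between the fractions of the miR-206 line. It had 503, 336 and 527 in muscle and 77.3, 50.1 and 66.6 in the rest, a log2 fold change of 2.53 (5.79-fold), and averaged 1890 in CNS cells and 128 in the rest of the wild-type miR-124 line. What this probe set reads is not given in the annotation used here, and whether it reads the GFP transcript of the reporters was not tested.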

How the results depend on the processing

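Of the 3 counts, 1 moved by over 1.5 times under 1 setting: 2226 features were higher in muscle after median centring, against 1248, and 1543 were lower, against 2209. The other planned settings gave 892 to 1610 features higher, 1760 to 2520 lower and 2809 to 3673 with a difference between the lines. Leaving out 1 array gave 1048 to 1356 higher, 1901 to 2390 lower and 2931 to 3451 with a difference. With the replicate block, in which same-numbered arrays are paired, 1460 features were higher and 2411 lower, and the difference was called for 3673; of the 241 named genes 6 that were not called without the block were called with it (aurka, cdk1, her7, hsp90aa1.2, kdrl and pax7a) and none lost its call. The change of eef1a1l1 turned to -0.02 after quantile normalization, from a called 0.28. Of 216 called named changes, 76 became smaller by over 1.5 times with a pseudocount of 64, and 31 became larger by over 1.5 times with a pseudocount of 1. Scaling limits what can be said of small shifts: median centring raises every change by 0.20, and the ribosomal protein, respiratory chain and translation factor counts moved with it and with single arrays. The signs of the list medians of the energy, sclerotome, Fgf, retinoic acid and germ plasm lists, all within 0.14 of zero, turned under at least 1 setting. The cause of these shifts was not tested. Promoter sequences were not analysed here.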

Other observations

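Lists not yet described behaved as follows, where 13.1% of all features rose and 23.1% fell. Of 14 measured myeloid genes 0 rose and 11 fell in muscle (8 after median centring), among them the macrophage and granulocyte factor genes cebpa, with 12.6, 17.8 and 28.9 in muscle and 514, 427 and 623 in the rest, and spi1b (-1.68). Of 16 endothelial genes 0 rose and 7 fell (median -0.49), with fli1 at 44.7, 73.1 and 89.4 in muscle and 122, 209 and 245 in the rest (-1.28), and 9 fell with the replicate block. Of 24 notochord and floor plate genes 3 rose and 17 fell, the notochord gene noto having 2.6, 8 and 9.4 in muscle and 327, 76.9 and 139 in the rest. Of 15 neural crest genes 2 rose and 10 fell, and of 15 placode genes 2 rose and 10 fell. The inner ear gene oc90 is not among these placode genes. It had 3.3, 8.3 and 10.6 in muscle and 275, 416 and 441 in the rest (-4.06). With no filter on dim features, 12 of 22 myeloid and 17 of 32 notochord and floor plate genes fell (medians -0.50 and -0.76). So did 11 of 21 neural crest and 10 of 20 placode genes (medians -0.57 and -0.55).

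Of 14 measured endoderm, yolk and hatching gland genes 2 rose and 11 fell. With no filter, 2 of the 30 on the array rose and 13 fell (median -0.37). Of 8 germ plasm genes 1 rose and 1 fell, and nanos3, a germ cell gene, had 9.2, 24.1 and 4.4 in muscle and 32.5, 19.9 and 154 in the rest (SE 0.93, not called); rest replicate 3 stood far above the other 5 arrays. Of 20 genes of cell cycle exit 3 rose and 2 fell, with mdm2 at 0.59 and the mRNA decay gene zfp36l1a at -1.98. Without rest replicate 1, 4 fell. Over all features 13.1% rose and 23.1% fell, so the germ plasm and cell cycle exit counts lay near or below those shares. Of the 924 genes with several probe sets tested, the probe sets of 1, mterf4, were called in opposite directions. Among the 2717 features without a single gene 333 were higher in muscle and 603 lower.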
